A study of Solanum tuberosum with 12 samples.

Results

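Potato (Solanum tuberosum) shoot tips were frozen in liquid nitrogen and then recovered in darkness. They were set against shoot tips that were never frozen and whose final condition was cool white light. The comparison takes the 3 dark libraries and the 3 non-cryopreserved libraries, 6 of the 12 libraries of the series, and all 19920 genes with enough reads to be tested of the 39027 genes listed. A shoot tip holds the apical meristem, the dividing tissue from which a shoot regrows, together with the youngest leaves. In cryopreservation a cryoprotectant limits the formation of ice crystals. Surviving cells must then repair membranes and restart growth, and oxidative stress is common at that stage. Light in turn drives the greening of shoot tissue and the expression of photosynthesis genes, and recovering tips are often kept dark at first to limit photo-oxidative damage.

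All tips were of the genotype Agrie Dzeltenie and were cut from 3.5-week-old plants grown in vitro. The tips of the dark group were soaked for 2 h in 10% dimethyl sulfoxide with 30% sucrose, frozen in droplets of that solution and held in liquid nitrogen for 1 h. After 1.5 h of rewarming they lay for 48 h in darkness on a regeneration medium that contained zeatin riboside, gibberellic acid and indole acetic acid, and then for another 16 h in darkness. A pair of further groups, used here only where named, had the same freezing and the same 48 h, and spent the last 16 h under cool white fluorescent light or under LEDs giving 90% red and 10% blue light, both at 40 µmol per square metre per second. The non-cryopreserved group was not frozen, and its final condition was 16 h of cool white light of that intensity. Each library pooled 10 tips, with 3 biological replicates in a group. The labels do not say if the never-frozen tips were likewise held dark for 48 h or given the regeneration medium. Freezing, the cryoprotectant, the medium and the lack of light cannot be told apart in the dark comparison. The identifiers in the count files are paired with no gene names, so tissue markers were not checked and genes are described by size and pattern of change.

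The dark libraries held 6836559 to 7894692 counted reads and the non-cryopreserved libraries 6342324 to 8140225. Thinned to 6342324 reads each, they showed on average 23377 detected genes (SD 68.7, n = 3) in dark libraries, against 23430 (SD 150, n = 3) in non-cryopreserved ones. The 100 most abundant genes took 18.8% of reads (SD 1.36, n = 3) in dark libraries, against 19.0% (SD 0.837, n = 3) in non-cryopreserved ones. Neither measure differed beyond the spread between libraries, with two-sided exact permutation p of 0.7 and 0.8, both 0.8 after Benjamini-Hochberg adjustment over the 2 measures, where 3 against 3 libraries cannot go below 0.1. The spread within groups was also similar. The biological coefficient of variation, the relative spread between replicates beyond counting noise, was 11.1% in darkness and 12.1% in non-cryopreserved tips.

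A majority of the tested genes differed. Of the 19920 genes, 10996 (55.2%) passed edgeR's quasi-likelihood test at an adjusted p under 0.05, with 5508 (27.7%) higher and 5488 (27.6%) lower in darkness. Libraries of the 2 groups did not overlap for 12317 genes (61.8%), of which 6101 (30.6%) were higher and 6216 (31.2%) lower in every dark library. Most differences were modest. Of the called genes, 6332 (57.6%) differed by less than 2-fold, and the middle 50% of all tested genes had log2 fold changes, dark over non-cryopreserved, from -0.53 to 0.50 around a median of -0.01. In pooled tissue, fewer cells of a type and less RNA per cell cannot be told apart.

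Called differences reached 2-fold or more for 2419 raised genes (12.1%) and 2245 lowered genes (11.3%) in darkness. The numbers stayed close to even further out, with 796 higher and 648 lower genes at 4-fold, and 271 higher and 236 lower at 8-fold. At 32-fold there were 41 higher and 37 lower genes. The called genes include 23 higher genes unread in all 3 non-cryopreserved libraries and 13 lower genes unread in all 3 dark libraries, whose fold depends on the floor given to the empty group. With the empty group set to 3 reads over its 3 libraries, 25 higher and 26 lower genes remained at 32-fold or more. When the test itself asked for a change beyond 2-fold (edgeR's glmTreat, adjusted p under 0.05), 1210 higher and 1008 lower genes passed, and beyond 1.5-fold 2493 and 2365 passed. Upper quartile scaling shifted the median of all genes to a log2 value of -0.08 and the balance of calls to 4926 higher and 6120 lower.

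**Figure D1:**
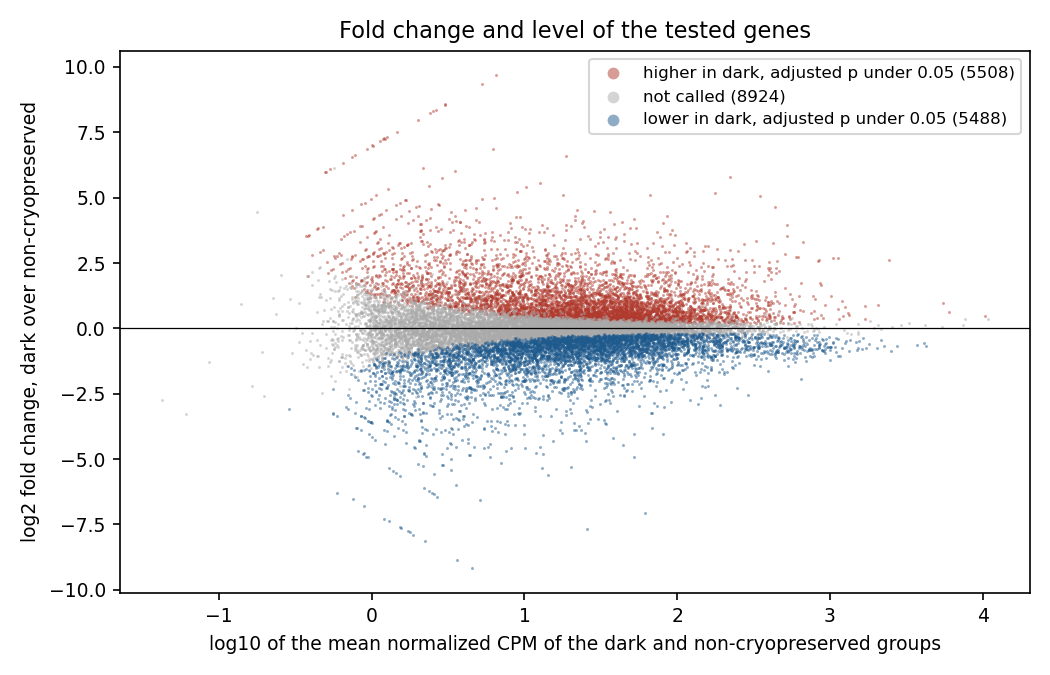
Each point is 1 of the 19920 tested genes, with the log10 of its mean CPM (TMM-normalized reads scaled to 1 common library size) over the dark and non-cryopreserved groups on the x axis and its log2 fold change, dark over non-cryopreserved, on the y axis. Red points are the 5508 genes called higher, blue points the 5488 called lower and grey points the 8924 not called. The oblique lines of points at the left are genes with no or few reads in 1 group, whose fold depends on the prior count of the fit.

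The 8924 genes that were not called differed in how closely their fold was bounded, and missing the threshold does not show that they were unchanged. For 6436 of them (72.1%) the 95% confidence interval of the log2 fold change lay within 2-fold in both directions. Another 297 had an estimate of at least 2-fold that did not pass the test. The median standard error of the log2 fold change was 0.16 among called and 0.19 among not called genes.

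The share of genes called grew with abundance, while large folds were more frequent at low abundance. Among 2023 genes with a mean of at least 100 CPM over the 12 libraries, 73.4% were called and 19.6% were called at 2-fold or more. Among 10475 genes between 10 and 100 CPM, 61.1% were called and 19.3% reached 2-fold. Among 7101 genes between 1 and 10 CPM, 42.1% were called and 30.0% reached 2-fold. The standard error falls along the same range, with a median of 0.32 between 1 and 10 CPM and 0.098 at 100 CPM or more.

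**Figure D2:**
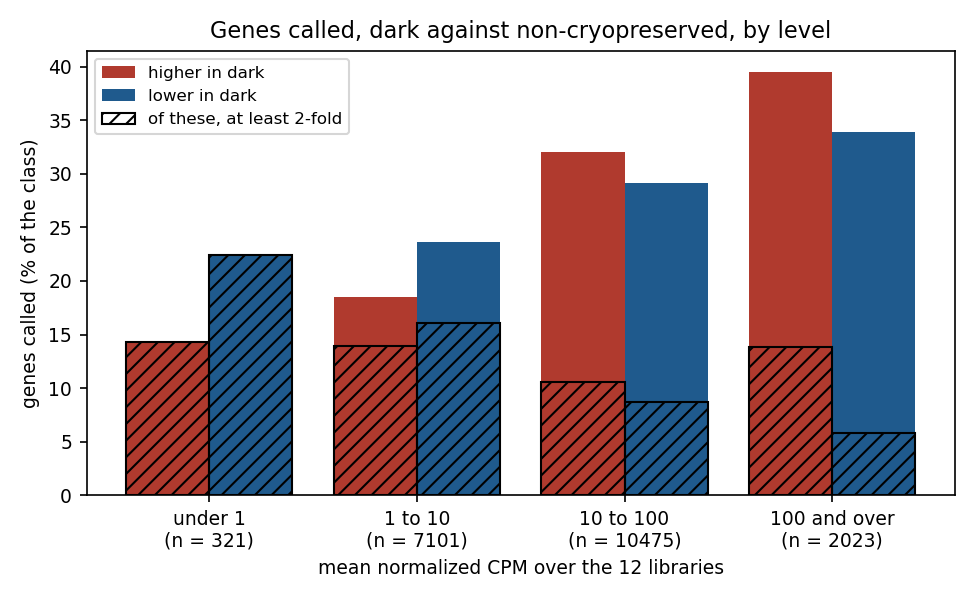
Bars give the percentage of genes called higher (red) and lower (blue) in darkness than in non-cryopreserved tips, for 4 classes of mean normalized CPM over the 12 libraries on the x axis. The hatched part is the share called at 2-fold or more. Of the 12 libraries behind the classes 9 were cryopreserved, which moves raised genes up and lowered genes down a class, so the balance of red and blue within a class is partly set by the classing.

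The gains and losses of reads were spread over many genes. As dark minus non-cryopreserved means, the called higher genes gained 194262 CPM in sum and the called lower genes fell by 185725 CPM. It took the 314 largest gains to make up 50% of the total gain and the 310 largest losses to make up 50% of the total loss. The median called higher gene gained 12.2 CPM and the median called lower gene fell by 10.7 CPM, and 10 called genes gained and 7 lost 1000 CPM or more.

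The gene with the largest gain was PGSC0003DMG400024428. It stood at 8781, 5515 and 7464 CPM in the dark libraries, against 4442, 3315 and 3392 CPM in the non-cryopreserved libraries. Every dark library lay above every non-cryopreserved one, which the choice of named genes required, and dark replicate 2 was well below the other dark libraries. The choice also required an adjusted p under 0.05. The tests of the named genes against non-cryopreserved tips are therefore a description and no separate evidence. The means were 7253 ± 1643 CPM for dark tips and 3716 ± 630 CPM for tips never frozen (SD, n = 3 each), and the gene ranked 5th in abundance in darkness and 11th in non-cryopreserved tips. On the log2 scale this gain was 0.96 (SE 0.15), and edgeR's quasi-likelihood test gave an adjusted p of 9.91e-05.

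PGSC0003DMG401025083 gained almost as many reads from a much lower start. It had 3992, 4199 and 4413 CPM in darkness, against 722, 700 and 618 CPM in non-cryopreserved tips, so the groups were far apart and each was tight. Its rank in abundance was 9 in darkness and 173 in non-cryopreserved tips. The gene was 6.18-fold higher in darkness, or 2.63 in log2 terms (SE 0.22), and its adjusted p from edgeR's quasi-likelihood test was 6.25e-07.

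Among called genes whose libraries did not overlap, the largest loss was that of PGSC0003DMG400022159. It had 3122, 3243 and 3370 CPM in darkness, against 5547, 4960 and 5108 CPM in non-cryopreserved tips. PGSC0003DMG400020772 followed with 2847, 2976 and 2909 CPM in darkness, against 4602, 4534 and 4506 CPM in non-cryopreserved tips. Both genes are among the most abundant of the tissue and neither fell by as much as 2-fold. The log2 fold changes were -0.68 (SE 0.14) for PGSC0003DMG400022159 and -0.64 (SE 0.09) for PGSC0003DMG400020772, and edgeR's quasi-likelihood test gave them adjusted p of 0.000917 and 4.45e-05.

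**Figure D3:**
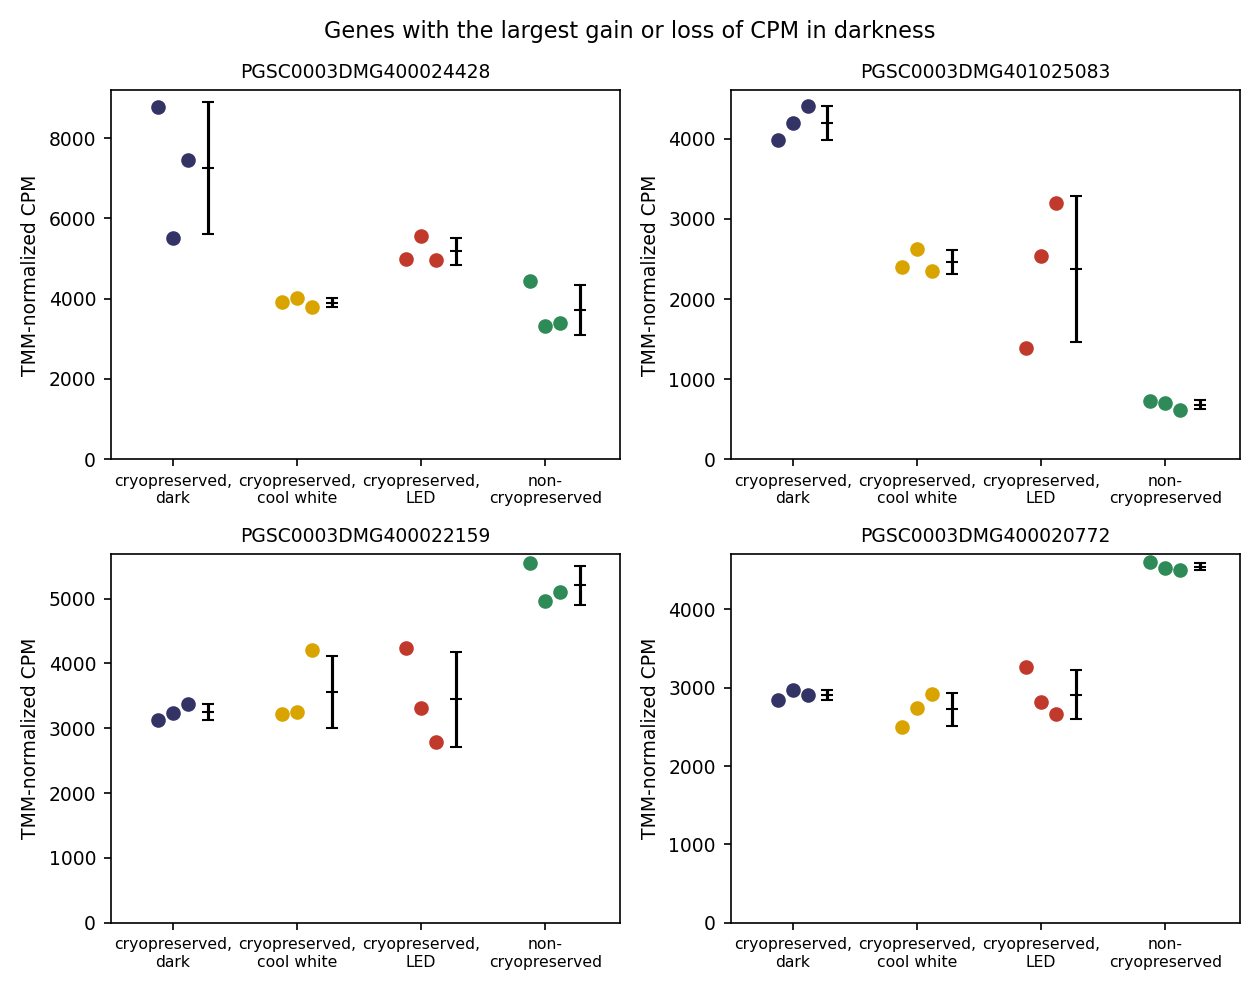
TMM-normalized CPM of the 2 genes with the largest gain (top) and the 2 with the largest loss (bottom) in each of the 12 libraries; points are libraries, and the bar beside them is the mean with the SD over 3 libraries. Dark libraries reach 8781 CPM for PGSC0003DMG400024428, while for both lower genes the 3 cryopreserved groups overlap below the non-cryopreserved libraries.

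Cryopreserved tips that received light for the last 16 h allow these levels to be set beside those under light. Setting darkness directly against each light after freezing tests whether the difference from non-cryopreserved tips changed with the final condition, since the non-cryopreserved libraries cancel. Across all genes, 2986 (15.0%) differed between darkness and cool white light. Of these, 907 (4.55%) were raised and 2079 (10.4%) lowered in darkness. Between darkness and LEDs 2118 (10.6%) differed, with 689 (3.46%) higher and 1429 (7.17%) lower in darkness. These counts moved when a library was left out, and the effect of having fewer replicates was not tested. Leaving out cool white replicate 1, 2 or 3 turned the 907 into 461, 426 or 628. Leaving out dark replicate 1, 2 or 3 gave 478, 630 or 709, so the 907 fell in every such fit. The counts against LEDs fell in every such fit except that without LED replicate 3, where they rose. Against LEDs the 689 became 333 or 1068 without LED replicate 2 or 3, and 381 or 335 without dark replicate 1 or 3; the 1429 became 878 without LED replicate 2 and 937 without dark replicate 1, and the total of 2118 became 1211, 1318 and 1295 without LED replicate 2 or dark replicate 1 or 3. Cryopreserved tips differed from non-cryopreserved tips in 49.3% of tested genes under cool white light and in 50.6% under LEDs.

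The named genes followed different courses, in tests that share the dark libraries with the comparison that picked them. PGSC0003DMG400024428 was at 3915, 4007 and 3781 CPM under cool white light, inside the range of the non-cryopreserved libraries, and at 4998, 5566 and 4966 CPM under LEDs. On the log2 scale darkness exceeded cool white light by 0.89 (SE 0.15, adjusted p 0.000942) and LEDs by 0.49 (SE 0.15, adjusted p 0.0519) in edgeR's quasi-likelihood test. Cryopreserved tips under cool white light differed from non-cryopreserved tips by 0.07, with a 95% interval from -0.25 to 0.39. The same test gave an adjusted p of 0.724.

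PGSC0003DMG401025083 was raised in all recovering tips and most in darkness. The values were 2398, 2630 and 2349 CPM under cool white light and 1387, 2538 and 3193 CPM under LEDs. Its log2 level was above that under cool white light by 0.77 (SE 0.21, adjusted p 0.0205) and above that under LEDs by 0.82 (SE 0.21, adjusted p 0.0201) in edgeR's quasi-likelihood test. Against non-cryopreserved tips the gene was higher by 1.86 (adjusted p 9.85e-06) under cool white light and by 1.80 (adjusted p 1.29e-05) under LEDs, comparisons that share the non-cryopreserved libraries with the dark one.

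For the named genes that fell, no difference between darkness and light passed the test. PGSC0003DMG400022159 had 3225, 3253 and 4202 CPM under cool white light and 4241, 3311 and 2783 CPM under LEDs. The log2 difference of darkness from cool white light was -0.13, with a 95% interval from -0.43 to 0.16, and that from LEDs was -0.09, with an interval from -0.38 to 0.21. PGSC0003DMG400020772 had 2502, 2743 and 2923 CPM under cool white light and 3258, 2816 and 2660 CPM under LEDs, and both sets of libraries overlapped with darkness. It differed between darkness and cool white light by 0.10, with an interval from -0.10 to 0.29, and between darkness and LEDs by 0.00, with an interval from -0.19 to 0.19.

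Whole groups of genes were followed across the 4 conditions in the same way. The groups were chosen on the dark and non-cryopreserved libraries, so their levels there are a description that the choice fixes. The libraries under cool white light and LEDs entered the choice only through the filter, the scaling and the estimate of spread. Choosing genes that lie far apart between darkness and non-cryopreserved tips also favours levels in between for the other libraries. The 2419 genes at least 2-fold higher in darkness took 15.0%, 15.5% and 15.6% of the reads of the dark libraries. They took 14.8%, 14.6% and 12.5% under cool white light and 11%, 13.4% and 15.7% under LEDs, against 4.75%, 4.91% and 4.60% in non-cryopreserved tips. All 6 illuminated cryopreserved libraries thus lay far above the non-cryopreserved ones, and LED replicate 3 lay at the level of darkness. The LED libraries also varied most among themselves over all genes, with a biological coefficient of variation of 18%.

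The 2245 genes at least 2-fold lower in darkness took 3.36%, 3.46% and 3.42% of reads in darkness. They took 5.60%, 5.93% and 6.37% under cool white light and 5.84%, 5.04% and 4.14% under LEDs, against 9.47%, 9.09% and 9.40% in non-cryopreserved tips, so each illuminated library lay between the other 2 groups. The 236 genes at least 8-fold lower took 0.0261%, 0.0240% and 0.0275% of reads in darkness. They stood at 0.246%, 0.262% and 0.260% under cool white light and 0.188%, 0.160% and 0.111% under LEDs, against 0.351%, 0.394% and 0.347% in non-cryopreserved tips. For these genes every illuminated library lay between the other 2 groups, and each cool white library lay above each LED library. The 271 genes at least 8-fold higher took 1.44%, 1.50% and 1.38% in darkness. They stood at 1.15%, 1.17% and 0.841% under cool white light and 0.737%, 0.979% and 1.47% under LEDs, against 0.115%, 0.127% and 0.103% in non-cryopreserved tips. Every illuminated library lay well above the non-cryopreserved ones here, and LED replicate 3 lay inside the range of darkness.

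**Figure D4:**
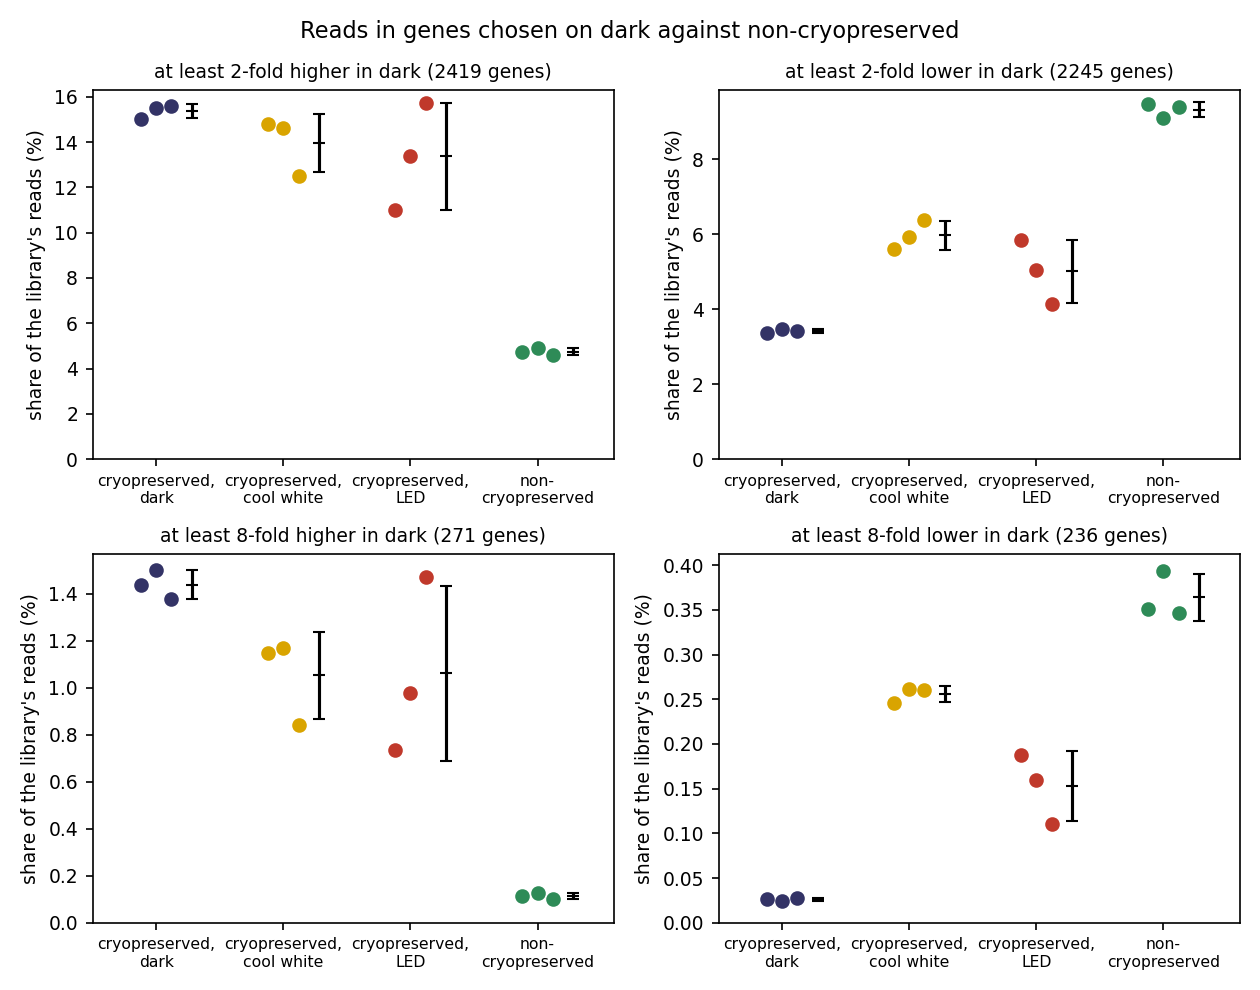
Share of each library's reads (%) taken by 4 groups of genes chosen on dark against non-cryopreserved; points are the 12 libraries and bars the mean with SD over 3 libraries. For the raised groups (left) the illuminated cryopreserved libraries all sit above the non-cryopreserved ones, and for the lowered groups (right) they sit between darkness and the non-cryopreserved libraries.

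Gene by gene the medians ran the same way. Across the 2419 raised genes the median log2 fold change over non-cryopreserved tips was 1.63 in darkness, 1.54 with cool white light and 1.44 with LEDs. Across the 2245 lowered genes it was -1.54 in darkness, -0.73 with cool white light and -0.92 with LEDs. Across the 236 genes at least 8-fold lower it was -3.80 in darkness, or -3.75 with empty groups at the floor, and -1.38 under cool white light and -1.97 under LEDs. Across all tested genes the medians were -0.01 in darkness, 0.05 with cool white light and 0.03 with LEDs. These comparisons share the non-cryopreserved libraries, and the genes were chosen on the dark one, which favours larger values in darkness.

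**Figure D5:**
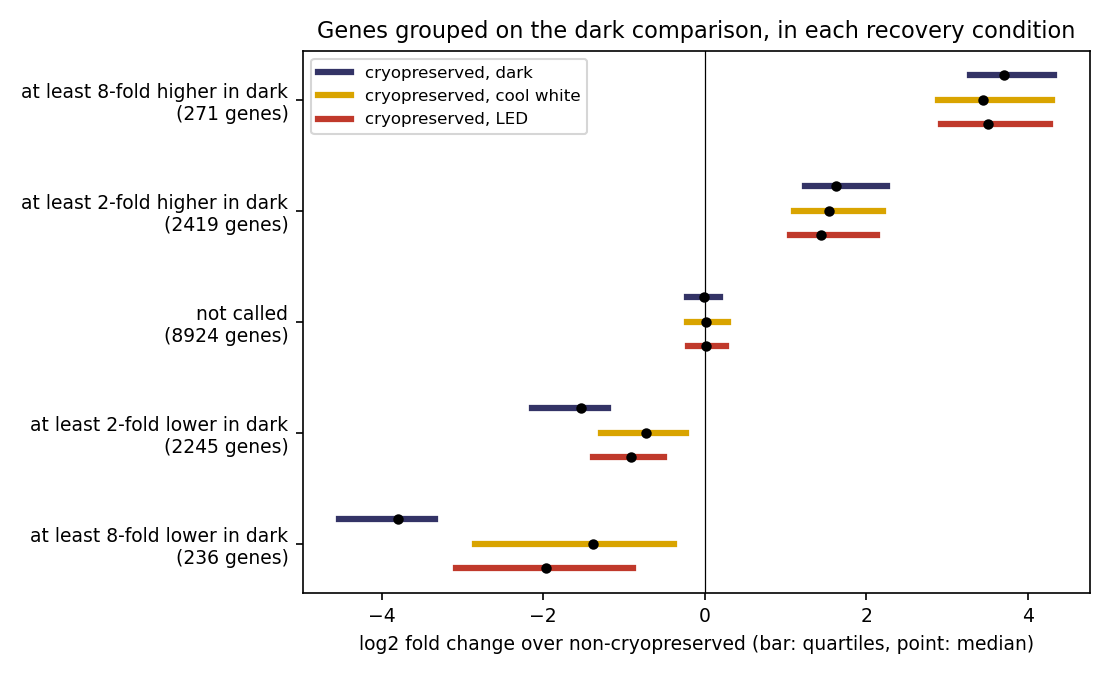
Median (point) and quartiles (bar) of the log2 fold change over non-cryopreserved tips, on the x axis, in 5 groups of genes chosen on the dark comparison, for each recovery condition. The bars of the 3 conditions nearly coincide in raised genes, and in lowered genes the medians under light (-0.73 and -0.92 in the group lower by at least 2-fold) are closer to 0 than in darkness (-1.54).

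LEDs against cool white light share no library with the dark comparison, although the filter, scaling and estimate of spread came from the same fit to all 12 libraries. Of all genes 287 (1.44%) differed between these lights, 212 of them (1.06%) lower under LEDs. Of the 2245 genes lowered by at least 2-fold in darkness, 79 (3.52%) were lower under LEDs than under cool white light and 3 higher, and of the 236 lowered by at least 8-fold, 19 (8.05%) were lower and 0 higher. The median log2 difference, LEDs over cool white light, was -0.20 in the 2245 genes and -0.44 in the 236, against -0.01 over all genes and -0.04 in the 2419 raised genes. The count of 287 fell to 95, 19 and 81 on leaving out cool white replicate 1, 2 or 3, and to 85 on leaving out LED replicate 2. It was 252 and 309 without LED replicate 1 or 3, and the effect of having fewer replicates was not tested. The counts and medians within the 2245 and 236 genes were not followed in these fits.

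Some genes were seen in 1 of the 2 groups only. Of the 39027 genes listed, 155 had reads in all 3 dark libraries and none in any non-cryopreserved library. They had a median of 10 reads over the 3 libraries and at most 276. The reverse held for 174 genes, with a median of 9 reads and at most 204. At this depth a count of 0 allows up to 3 reads over a group, or 0.139 CPM in darkness and 0.137 CPM in non-cryopreserved tips, and covers counting error only. Of the 155 genes 22 passed the count filter, and of the 174 genes 13 did. Their calls are set by how they were chosen and are not counted here. The 155 dark genes included 82 with reads in every cool white library and 79 with reads in every LED library, while 8 and 12 had none there. Of the 174 genes unread in darkness, 52 had reads in every cool white and 45 in every LED library, and 34 and 32 had none there. Both sets were chosen for 0 reads in 1 group, which favours reads elsewhere. The shares for other genes of like count were not determined, so these counts under light are a description only.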

How the data were processed

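The authors deposited raw read counts per gene, 1 file per library, with no normalization. The tools listed are featureCounts 1.5.0, DESeq2 1.14.1, TopHat2 2.0.8b, FastQC 1.11.2 and Bowtie 1.1.1, per the submitters' processing notes. Polyadenylated RNA was made into stranded libraries, per the labels' protocols. Build, annotation, strand setting and treatment of multiply mapped reads were not given in the sources used. Overlapping or near-identical genes therefore have uncertain counts. Of the 39027 identifiers 0 matched RefSeq's genes for SolTub_3.0, so gene lists could not be used and no sequence is shown.

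Genes were kept by filterByExpr (minimum count 10, minimum total 15), scaled by TMM and tested with glmQLFit and glmQLFTest in edgeR 4.0.16 under R 4.3.3, all 12 libraries in 1 fit with group as the factor (8 residual degrees of freedom). Adjusted p-values are Benjamini-Hochberg over all 19920 genes. Standard errors were taken as the size of the log2 value divided by the root of F. Named genes are the 2 largest gains and 2 largest losses in mean CPM among called genes whose libraries did not overlap. Genes, groups and tests were chosen with earlier results of these data known. Alternatives used DESeq2 1.42.0 and limma 3.58.1, other scalings and filters, a replicate block and leaving out libraries.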

Additional observations from a re-analysis of the deposited data

Results flagged for a closer look

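The difference from non-cryopreserved tips was not the same in darkness and under light for 2986 genes tested as darkness against cool white light and 2118 genes tested as darkness against LEDs, both with edgeR's quasi-likelihood test at an adjusted p under 0.05. PGSC0003DMG400024428 was higher in darkness than under cool white light by a log2 fold change of 0.89, and all 3 dark libraries lay above all 3 cool white libraries. PGSC0003DMG401025083 was higher in darkness than under cool white light by 0.77 and than under LEDs by 0.82, in all 3 dark libraries each time. These tests share the dark libraries with the comparison that picked the genes.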

How the results depend on the processing

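The count of genes called in darkness against non-cryopreserved tips lay between 8378 (adjusted p under 0.01) and 11100 (at least 1 CPM in 3 libraries) over the alternatives, and between 9872 and 10297 with 1 library left out. Of the 10996 called genes, 8440 (76.8%) were called in the same direction in all 6 fits that left out a library of the comparison, and 0 were called in the opposite direction in any alternative. All 4 named genes kept their direction and their call in every alternative. With replicate number as a block 10792 genes were called. Whether the numbers pair libraries was not settled. Deviations of same-numbered libraries correlated at -0.08 to -0.05 for dark and non-cryopreserved tips, and at 0.20, 0.01 and 0.13 for dark and LED tips. The block left 135 genes between LEDs and cool white light, and moved no other count by over 1.5 times.

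Comparisons within cryopreserved tips moved more. At an adjusted p under 0.01, darkness against cool white light gave 1567 genes (288 higher, 1279 lower), darkness against LEDs 899 (203 higher, 696 lower) and LEDs against cool white light 24. Library size scaling gave 472 genes higher in darkness than under cool white light. Fitting only the 6 libraries compared gave 1264 genes between darkness and LEDs (336 higher, 928 lower) and 94 between LEDs and cool white light. Against the 287 genes of the fit to all 12 libraries, LEDs against cool white light gave 446 with no filter and 726 with DESeq2. With 1 library left out, genes higher in darkness ranged from 426 to 709 against cool white light and from 333 to 1068 against LEDs. Genes lower in darkness than under LEDs ranged from 878 to 1929, the total against LEDs from 1211 to 2997, and LEDs against cool white light from 19 to 309. The causes were not tested.

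Each scaling also changed which genes were called at 2-fold, so the sums that follow are over different genes, 2212 higher and 2497 lower with upper quartiles against 2419 and 2245 with TMM. The genes at least 2-fold higher summed to 158521 CPM in darkness and 48248 CPM in non-cryopreserved tips, or 144382 and 43589 CPM with upper quartiles and 150378 and 45770.3 CPM with library size only. The genes at least 2-fold lower summed to 35189 CPM in darkness and 94640.2 CPM in non-cryopreserved tips, or 42992 and 114864 CPM with upper quartiles, and in darkness to 36118 CPM with DESeq2 size factors and 35916 CPM with library size only. The median log2 fold change of all genes was -0.08 with upper quartiles, -0.03 with library size only and -0.02 with DESeq2 size factors. At 6342324 to 10572258 reads a library, genes under 10 CPM had a median SE of 0.32 or more.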
